A study of Homo sapiens with 12 samples.

Results

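PLAU, PLAUR and ST14 are 3 of the 770 genes counted on a tumour progression panel in HCT-116 cells, an established human colorectal carcinoma cell line. They were chosen by name, as pericellular serine proteases and the urokinase receptor, and chosen with their group means already known, so their values are a description and are not independent evidence of a direction. All 3 were in each of the 3 deposited tables. The cells were given heteronemin (a sesterterpenoid from a marine sponge), tetrac (tetraiodothyroacetic acid, a deaminated analogue of thyroxine) or Heteronemin+Tetrac, or were left as Control, and all treatments lasted 24 h. The labels give 3 samples for each of the 4 groups, 12 in all, each of the same cell line grown in six-well plates. They do not say that the samples came from separate cultures, and no source used here gives a dose. RNA was counted with NanoString nCounter, in which fluorescent barcodes on hybridised probes are counted without amplification.

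The tables hold 1 normalized value per gene and group, here called the group mean, with the authors' fold change and p-value. No values of single samples were analysed here. A mean therefore has no SD, interval or depth beside it, and whether the samples of 2 groups overlap is unknown. The lowest value in any group was 33, taken here as the authors' floor. A gene counts as passing where the p-value in the authors' deposited table, unadjusted and printed to 2 decimals, was under 0.05. A fall in the RNA of each cell and a loss of the cells that express a gene cannot be told apart in such bulk RNA.

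PLAU encodes urokinase, a secreted serine protease that cleaves plasminogen to plasmin, a broad protease that degrades fibrin and matrix proteins and activates other proteases. PLAUR encodes the urokinase receptor, a glycolipid-anchored protein that holds urokinase at the cell surface and also binds vitronectin. ST14 encodes matriptase, a transmembrane serine protease of epithelial cells that can activate pro-urokinase, the prostasin zymogen and the precursor of hepatocyte growth factor. In colorectal tumours the urokinase system is known for its place in invasion, and matriptase for its place in epithelial barrier upkeep.

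The start regions of PLAUR and PLAU are shown because the factor AP-1, of which JUN is a subunit, is a known regulator of both genes and JUN was on the panel. The sequences are from RefSeq, build GRCh38.p14, and run from 250 bases before to 50 bases after an annotated start, 5′ to 3′ on the gene's strand. Both strands were searched for TGACTCA, the AP-1 site, and for GGGCGG, the GC box bound by Sp1. Matches to the 2 motifs do not overlap in these windows. Capitals mark the matches. The PLAUR window lies at chr19:43670120-43670419 on the minus strand. The PLAU windows lie at chr10:73910360-73910659 and chr10:73910882-73911181 on the plus strand, for 2 annotated starts.
PLAUR: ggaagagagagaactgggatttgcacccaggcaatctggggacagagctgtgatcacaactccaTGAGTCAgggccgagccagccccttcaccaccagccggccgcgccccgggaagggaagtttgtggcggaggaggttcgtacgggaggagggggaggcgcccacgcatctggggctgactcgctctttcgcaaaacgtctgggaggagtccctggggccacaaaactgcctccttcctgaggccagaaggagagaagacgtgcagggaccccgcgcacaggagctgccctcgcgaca
PLAU, upstream start: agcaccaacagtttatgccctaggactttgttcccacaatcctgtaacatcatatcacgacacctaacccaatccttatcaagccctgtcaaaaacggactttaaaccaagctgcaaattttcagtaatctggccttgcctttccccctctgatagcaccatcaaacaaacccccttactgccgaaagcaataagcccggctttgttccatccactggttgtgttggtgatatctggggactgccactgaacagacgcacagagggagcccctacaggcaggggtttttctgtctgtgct
PLAU, downstream start: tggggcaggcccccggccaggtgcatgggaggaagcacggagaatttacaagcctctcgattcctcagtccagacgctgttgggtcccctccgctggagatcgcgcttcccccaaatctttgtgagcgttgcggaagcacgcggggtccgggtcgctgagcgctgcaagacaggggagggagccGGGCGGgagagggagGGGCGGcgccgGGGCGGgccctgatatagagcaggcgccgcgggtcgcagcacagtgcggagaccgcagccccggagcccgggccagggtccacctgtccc
The PLAUR window held 1 match to the AP-1 site, written TGAGTCA on this strand, with its first base 186 bases before the start. It held 0 GC boxes. The downstream PLAU window held 3 GC boxes, with first bases 66, 51 and 40 bases before the start, and 0 AP-1 matches. The upstream PLAU window held 0 matches to either motif. Of 35116 windows of 300 bases in the RefSeq table, 4.95% held an AP-1 match and 44.95% a GC box. A match is a run of letters, not a measured site, and sequence outside these windows was not searched.

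ST14 had the widest range of the 3 genes, its highest group mean 1.56 times its lowest, and it was lower in both groups that received heteronemin. Its mean was 640.2 normalized counts after heteronemin, 880.25 after tetrac, 637.7 after Heteronemin+Tetrac and 995 in Control. The order from low to high was thus Heteronemin+Tetrac, heteronemin, tetrac and Control, with the first 2 a factor of 1.004 apart. Of the neighbours in this order, only tetrac and Control have a deposited p-value. With no spread over samples, the tables cannot show whether the others differ. All 4 means lay far above the floor, Control at 30.2 times its value.

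Against Control, the mean of ST14 was 35.7% lower after heteronemin, a log2 ratio of -0.64 (p = 0.01 in the authors' deposited table). After Heteronemin+Tetrac it was 35.9% lower, a log2 ratio of -0.64 (p = 0.03 in the authors' deposited table). After tetrac it was 11.6% lower, a log2 ratio of -0.18 (p = 0.34 in the authors' deposited table). Among the 356 genes that averaged 100 or more normalized counts across the groups, all 3 members included, ST14 was the 22nd lowest log2 ratio after heteronemin and the 18th lowest after Heteronemin+Tetrac. Of the 50 genes nearest to it in mean level, 4 had a lower log2 ratio after heteronemin, 16 after tetrac and 2 after Heteronemin+Tetrac. The median of those neighbours was also below 0, at -0.30, -0.14 and -0.17 on the log2 scale in the same order.

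**Figure D1:**
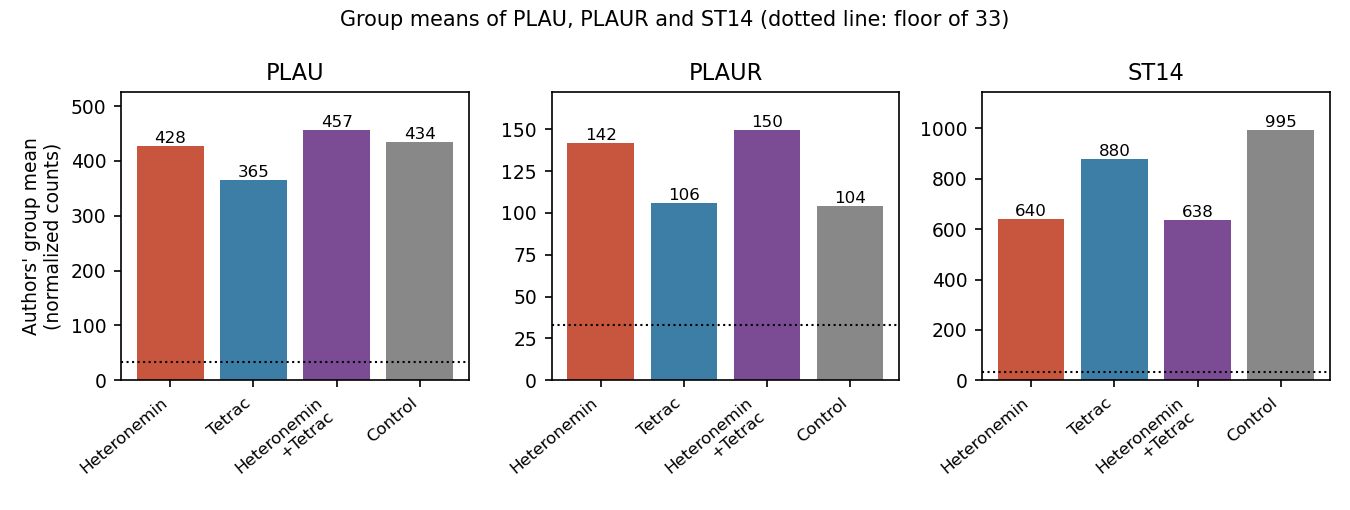
Bars give the authors' group means in normalized counts for PLAU, PLAUR and ST14 after heteronemin, tetrac and Heteronemin+Tetrac and in Control, from 0 on each axis, without error bars because the tables hold no values per sample; the dotted line is the floor of 33. ST14 stood at 640.2 and 637.7 in the 2 groups with heteronemin against 995 in Control, and PLAUR at 142 and 149.7 against 104.

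PLAUR had its highest means in the same groups. Its mean was 142 normalized counts after heteronemin, 106 after tetrac, 149.7 after Heteronemin+Tetrac and 104 in Control. The 2 groups with heteronemin were high, and tetrac stood beside Control, 1.77 counts above it. PLAUR was the member nearest to the floor, with Control at 3.16 times its value.

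After Heteronemin+Tetrac the mean of PLAUR was 43.5% higher than in Control, a log2 ratio of 0.52 with a p printed as 0 in the authors' deposited table, which stands for any p below 0.005. After heteronemin it was 36.1% higher, a log2 ratio of 0.44 (p = 0.11 in the authors' deposited table). The PLAUR mean after Heteronemin+Tetrac was 1.05-fold that after heteronemin, so the 2 comparisons lay on opposite sides of the threshold with nearly the same mean, and the difference between them was not tested. After tetrac the log2 ratio was 0.02 (p = 0.87 in the authors' deposited table). Among the 356 genes with a mean level of 100 or more, PLAUR was the 27th highest log2 ratio after Heteronemin+Tetrac and the 33rd highest after heteronemin. Over all 770 genes, many of them at the floor in Control, PLAUR was only the 108th and the 302nd highest in the same order. Of its 50 nearest genes in level, 5 had a higher log2 ratio after Heteronemin+Tetrac, 10 after heteronemin and 28 after tetrac. Their medians were -0.01, 0.19 and 0.04 on the log2 scale in the same order. The tables name accession NM_001005376.1 for PLAUR, 1 of 18 RefSeq transcripts of the gene, and do not say which of the others the probe counts.

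PLAU had the narrowest range of the 3, its highest group mean 1.25 times its lowest. The mean was 428 normalized counts after heteronemin, 365 after tetrac, 457 after Heteronemin+Tetrac and 434 in Control. Tetrac alone was the low group, and the other groups lay between 428 and 457. Control stood at 13.2 times the floor.

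After tetrac the mean of PLAU was 16.0% lower than in Control, a log2 ratio of -0.25 (p = 0.04 in the authors' deposited table). After heteronemin the log2 ratio was -0.02 with p = 0.72, and after Heteronemin+Tetrac 0.07 with p = 0.30, both in the authors' deposited table. Among the 356 genes with a mean level of 100 or more, PLAU was the 14th lowest after tetrac. Of its 50 nearest genes in level, 2 had a lower log2 ratio after tetrac, where their median was -0.12. After heteronemin and Heteronemin+Tetrac, 39 and 40 of the 50 lay below PLAU, at medians of -0.23 and -0.12.

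By comparison, 1 of the 3 members passed after heteronemin (ST14, lower), where 27.1% of the 704 genes with a p-value passed, 11.2% higher and 15.9% lower. After tetrac 1 of 3 passed (PLAU, lower), where 1.26% of 714 genes passed, 0.28% higher and 0.98% lower. After Heteronemin+Tetrac 2 of 3 passed (PLAUR, higher, and ST14, lower), where 22.3% of 686 genes passed, 8.16% higher and 14.1% lower. Since the members were chosen with these values known, nothing is read from these counts. After Benjamini-Hochberg adjustment over each table, on the largest p that rounds to the printed one, ST14 stood at 0.124 after heteronemin and 0.178 after Heteronemin+Tetrac. On the same basis PLAUR stood at 0.0715 after Heteronemin+Tetrac and PLAU at 0.657 after tetrac. These adjusted values were computed from the deposited p-values, which are unadjusted.

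**Figure D2:**
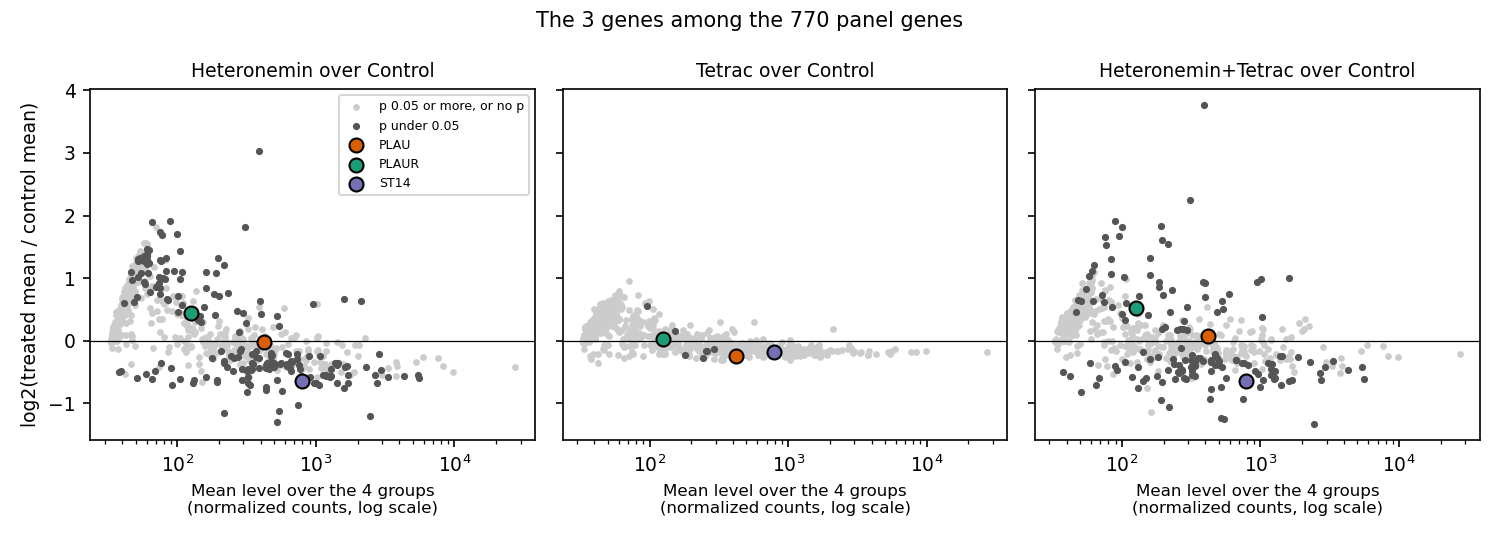
Each point is 1 of the 770 genes, with its mean level over the 4 groups in normalized counts on a log axis and the log2 ratio of the treated over the Control mean, for each treatment; dark points have a deposited p under 0.05. PLAUR lies among the higher and ST14 among the lower genes of their level in the 2 panels with heteronemin, and PLAU lies near the lower edge in the tetrac panel, at -0.25.

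The tables hold no test between treatments, so the quotients between them are a description. The ST14 mean after Heteronemin+Tetrac was 0.996-fold that after heteronemin, and 0.724-fold that after tetrac. The PLAUR mean after Heteronemin+Tetrac was 1.41-fold that after tetrac. For both genes the 2 groups with heteronemin had nearly the same level, with or without tetrac. For PLAU the mean after Heteronemin+Tetrac was 1.07-fold that after heteronemin and 1.25-fold that after tetrac. PLAU therefore stood lower with tetrac alone than in either group with heteronemin.

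The log2 interaction compares the ratio of Heteronemin+Tetrac to Control with the sum of the log2 ratios of both single treatments. It was 0.35 for PLAU, 0.05 for PLAUR and 0.17 for ST14. Its median was 0.18 over the 356 genes with a mean level of 100 or more, so a value above 0 was usual at this level. In that set, the interaction of PLAU was the 58th highest. The 3 comparisons share the Control samples, and the interaction had no test.

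The sizes depend on the scale. The sum of group means over the panel was 280484 after heteronemin, 306898 after tetrac, 297671 after Heteronemin+Tetrac and 333810 in Control. Setting these sums equal adds 0.25, 0.12 and 0.17 to every log2 ratio in the order of the treatments. ST14 then stood at -0.39 after heteronemin and -0.48 after Heteronemin+Tetrac, and PLAUR at 0.70 and 0.69. PLAU turned to 0.23 after heteronemin and stayed below 0 after tetrac, at -0.13. The geometric mean of the 30 housekeeping genes was 296.1, 299.5, 297.5 and 299.6 in the same order of groups, so setting it equal moved no ratio by more than 0.02.

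**Figure D3:**
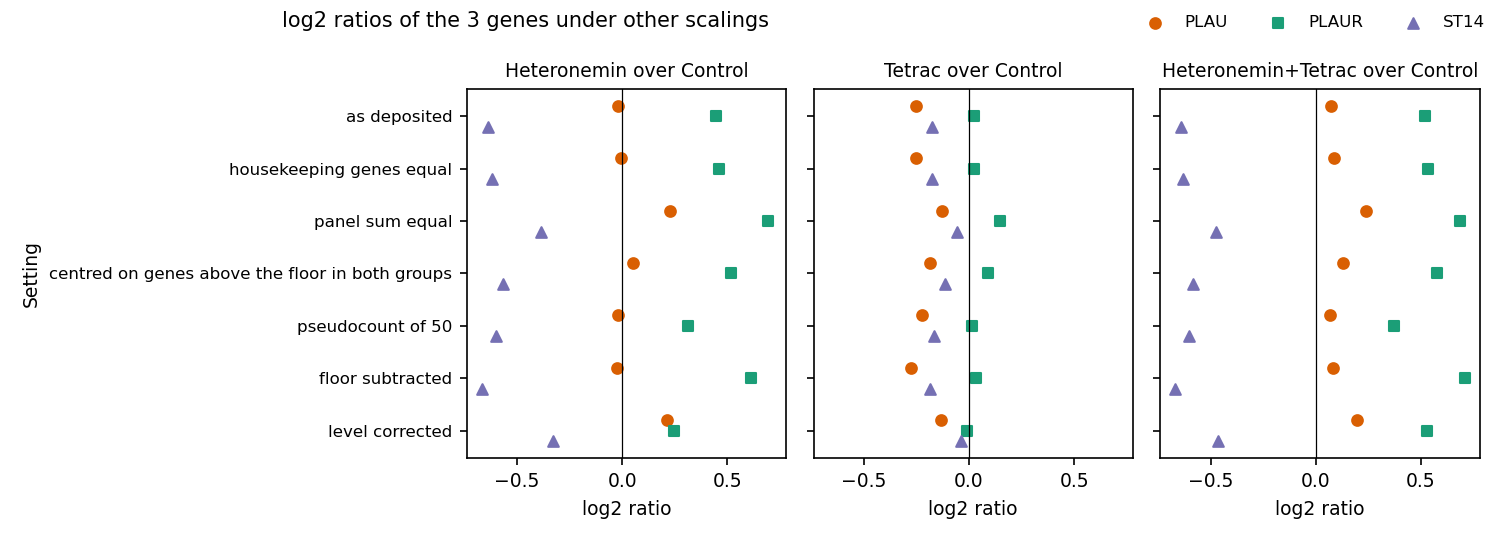
Points give the log2 ratio of the treated over the Control mean of PLAU, PLAUR and ST14, as deposited and under 6 other scalings, with 1 panel for each treatment. ST14 kept to the left of 0 in all settings, PLAUR to the right of 0 in the 2 panels with heteronemin, and PLAU crossed 0 after heteronemin.

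For plasminogen activation, 3 of 19 listed genes are reported, PLAU, PLAUR and ENO1, all above the floor in every group. After heteronemin 0 passed. After tetrac 1 passed, lower (PLAU), and after Heteronemin+Tetrac 1 passed, higher (PLAUR). Over all tested genes 27.1%, 1.26% and 22.3% passed in the order of the treatments. The median log2 ratio of the 3 was -0.02, -0.23 and 0.07 in that order. Over all genes, many of them at the floor in Control, it was 0.11, 0.02 and 0.09. All 3 had a mean level of 100 or more, and over the 356 genes at that level the median was -0.19, -0.11 and -0.15.

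ENO1, an enolase of glycolysis that at the cell surface also binds plasminogen, had a mean of 3437 normalized counts after heteronemin, 3722 after tetrac, 3612 after Heteronemin+Tetrac and 4364 in Control. Its log2 ratios were -0.34, -0.23 and -0.27, and it did not pass in any comparison. Its Control mean was thus the highest of the 4, whereas for PLAUR it was the lowest.

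Of 16 genes listed for the matriptase system, 9 were measured. In Control 4 of them stood at the floor (HGF, TMPRSS2, TMPRSS4 and TMPRSS6), and TMPRSS4 stood there in all 4 groups. After heteronemin 1 passed higher (PRSS8) and 1 lower (ST14). After tetrac 0 of the 8 with a p-value passed, and after Heteronemin+Tetrac ST14, lower, was the 1 that passed. Over all tested genes 27.1%, 1.26% and 22.3% passed in the order of the treatments. The list's median log2 ratio was 0 in each comparison, which is the value of TMPRSS4 at the floor, beside 0.11, 0.02 and 0.09 over all genes. ST14, SPINT1, MET and EPCAM lay below 0 in each comparison. PRSS8, HGF and TMPRSS2 lay above 0 in each, and TMPRSS6 after the single treatments.

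SPINT1 encodes HAI-1, the Kunitz-type inhibitor that binds matriptase at the cell surface. Its mean was 334 normalized counts after heteronemin, 336 after tetrac, 348 after Heteronemin+Tetrac and 350.2 in Control, with log2 ratios of -0.07, -0.06 and -0.01 and no p under 0.05. ST14 was thus low in the groups with heteronemin while the 4 means of its inhibitor lay between 334 and 350.2.

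PRSS8 encodes prostasin, a glycolipid-anchored serine protease that matriptase activates. Its mean was 117 normalized counts after heteronemin, 68.5 after tetrac, 74.1 after Heteronemin+Tetrac and 58.3 in Control. It rose after heteronemin, to 1.999 times the Control mean (p = 0.01 in the authors' deposited table). After Heteronemin+Tetrac its log2 ratio was 0.34 (p = 0.29 in the authors' deposited table). Its high group was thus heteronemin alone, and the difference between these treatments was not tested. Its Control mean was near the floor of 33.

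Other genes of the matriptase system did not pass in any comparison. MET, the receptor of hepatocyte growth factor, had log2 ratios of -0.40, -0.16 and -0.35 in the order of the treatments. EPCAM, an epithelial adhesion protein that matriptase can cleave, had -0.37, -0.20 and -0.26. HGF, the growth factor itself, had a mean of 76.0 normalized counts after heteronemin against the floor in Control, with p = 0.12 in the authors' deposited table. TMPRSS2 and TMPRSS6, related transmembrane proteases, reached 53.2 and 52.6 after heteronemin, also from the floor and without a p under 0.05. Over the panel, 213 genes at the floor in Control stood above it after heteronemin.

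**Figure D4:**
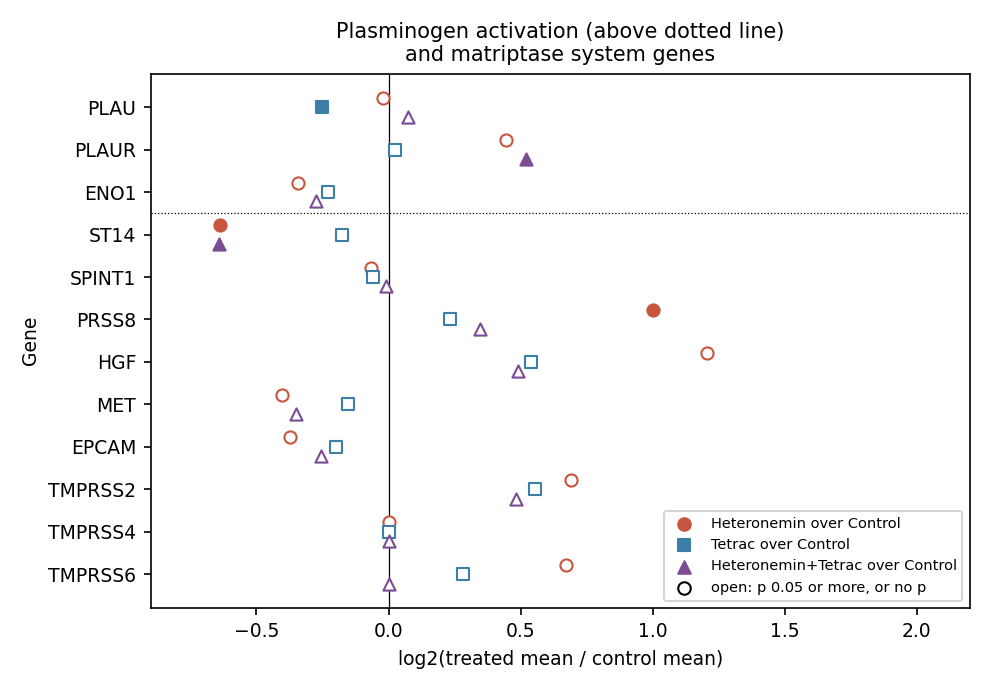
Symbols give the log2 ratio of the treated over the Control mean for 3 genes of plasminogen activation and 9 of the matriptase system, circles for heteronemin, squares for tetrac and triangles for Heteronemin+Tetrac; filled symbols have a deposited p under 0.05. PLAUR lies right of 0 and ST14 left of 0 in both comparisons with heteronemin, and SPINT1 lies close to 0 in all 3, from -0.07 to -0.01.

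The urokinase receptor has no domain inside the cell and is known to signal through membrane partners and the kinases and adaptors linked to them, of which 10 of 15 listed genes were measured. After heteronemin 3 of 10 passed, all lower (CAV1, ITGA5 and EGFR), a share near the 27.1% of all tested genes, of which 15.9% were lower. After tetrac 0 of 10 passed, and after Heteronemin+Tetrac CAV1 and EGFR passed, lower, where 22.3% of all tested genes passed. The list's median log2 ratio was -0.05, -0.13 and 0.10 in the order of the treatments.

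CAV1, which encodes the caveolar coat protein caveolin-1, had a mean of 514 normalized counts after heteronemin, 882 after tetrac, 549 after Heteronemin+Tetrac and 1048 in Control. Like ST14 it was low in both groups with heteronemin. ITGA5, the alpha chain of the fibronectin receptor, had a log2 ratio of -0.27 after heteronemin (p = 0.02 in the authors' deposited table) and of -0.10 after Heteronemin+Tetrac. EGFR had log2 ratios of -0.38 and -0.31 in these 2 comparisons. ITGB1 and ITGA3, integrin chains reported to bind the receptor, stood within 0.25 of 0 in all 3 comparisons and did not pass. The integrin chains ITGB3, ITGAM and ITGB2 were at the floor in Control.

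Factors known to act on PLAU and PLAUR were sparse on the panel, with 5 of 19 listed genes measured. After heteronemin JUN passed, higher, and ETV4 passed, lower, and both did so again after Heteronemin+Tetrac. After tetrac 0 of 5 passed. Over all tested genes 27.1%, 1.26% and 22.3% passed in the order heteronemin, tetrac and Heteronemin+Tetrac. JUN had a mean of 419 normalized counts after heteronemin, 126 after tetrac, 569 after Heteronemin+Tetrac and 119 in Control. The groups in which JUN was high were those in which PLAUR was high. PLAU was near its Control mean in these groups, with log2 ratios of -0.02 after heteronemin and 0.07 after Heteronemin+Tetrac. The part of JUN in the values of either gene was not tested. ETV4, an ETS factor, had log2 ratios of -0.36, 0.01 and -0.47. ELF3, SP1 and NFKB1 did not pass, with log2 ratios from -0.16 to 0.25.

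The genes most like each member were named by the Euclidean distance between their log2 ratios over Control in the 3 treatments, among the 355 other genes with a mean level of 100 or more. All of these ratios share the Control samples. For PLAUR the nearest were SH2D3A, an adaptor protein, at a distance of 0.043, the sheddase gene ADAM17 at 0.125 and the growth factor gene PDGFA at 0.130. For ST14 they were ARAP2, a regulator of ARF GTPases, at 0.047, the lactate dehydrogenase gene LDHA at 0.048 and the kinase gene ROCK2 at 0.064. For PLAU they were the keratin gene KRT19 at 0.075, the RNA-binding protein gene QKI at 0.090 and the receptor gene NOTCH1 at 0.101. Within a distance of 0.2 lay 26 genes for ST14, 26 for PLAU and 5 for PLAUR, so PLAUR had the fewest neighbours among these 355. Genes of a lower mean level were not compared, so the count does not describe the whole panel.

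LDHA, for example, had means of 4594 normalized counts after heteronemin, 6214 after tetrac, 4543 after Heteronemin+Tetrac and 6960.4 in Control, the order seen for ST14. SH2D3A had 331, 255, 355 and 244.5 in the same order of groups, again high in the groups with heteronemin. KRT19 had 1523, 1376, 1637 and 1604, low after tetrac as PLAU was.

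The epithelial character of this carcinoma line, which the labels do not state, was checked on 9 measured colon epithelial markers. In Control 8 of them were above the floor, among them EPCAM at 1814, ESRP1 at 1712 and KRT19 at 1604 normalized counts, and CEACAM5 was at the floor. Their summed level was 7192 after heteronemin, 7195 after tetrac, 8076 after Heteronemin+Tetrac and 7851 in Control. CLDN3 passed higher and CDH1 lower after heteronemin, and CLDN7 higher after Heteronemin+Tetrac. Of 11 measured endothelial, blood and stromal markers, 7 were at the floor in Control. Their summed level was 663, 488, 576 and 400.3 in the same order of groups, and CD34 and COL1A1 passed, higher, after heteronemin. Over the panel, 279 genes were at the floor in Control, against 70 after heteronemin, 61 after tetrac and 90 after Heteronemin+Tetrac. A step off the floor was thus not particular to these markers. CD34 and COL1A1 were already above the floor in Control, at 35.6 and 67.15 normalized counts, against 84.7 and 144.3 after heteronemin. Of all tested genes, 27.1% passed after heteronemin and 22.3% after Heteronemin+Tetrac. The part of the marker shifts in the values of PLAU, PLAUR and ST14 was not tested.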

How the data were processed

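The series' design text says that the authors took raw nCounter counts through nSolver 4.0, first a technical step with positive controls, then a biological one. The authors deposited a normalized signal per gene and group in 3 tables, 1 per treatment, each with 740 endogenous and 30 housekeeping genes and the same Control column. Beside it the authors deposited a signed fold change as a score, within 0.00511 of the quotient of the group means. The authors deposited a p-value per gene. No source used here gives the kind of mean, the test or the background threshold, and the raw depth is unknown.

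Log2 ratios of the treated over the Control mean were computed with Python 3.11.15, numpy 2.4.6 and pandas 2.3.3. A p-value of a table can set a difference only against the spread between its own samples, which may be technical. Named genes are the 3 members, measured genes of the plasminogen activation and matriptase lists (1 listed gene is not reported here), called genes of the other lists (up to 4 per comparison) and the 3 genes nearest in pattern to each member. Uncalled genes of the other lists are named outside this rule, chosen after their values were seen. The members and lists were chosen with earlier results of these data known. Accessions of all 3 members matched RefSeq by number without version; PLAU and PLAUR had start sequences in the RefSeq table used, and that of ST14 was not used here. The tables name no genome build. Scaling, pseudocount, background, gene level, threshold and multiple testing were varied. Counting, adjustment and level correction were tested on simulated data.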

Additional observations from a re-analysis of the deposited data

How the results depend on the processing

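Of 54 values of PLAU, PLAUR and ST14 under other settings (equal housekeeping genes, equal panel sums, centring on genes above the floor, a pseudocount of 50, the floor subtracted, and level correction, which subtracts the median log2 ratio of 51 genes of nearest level), 50 kept their direction, among them all 24 of the comparisons that passed, and 0 moved by over 1.5-fold. The other 4 were PLAU after heteronemin, at 0.23 with equal panel sums, 0.05 after centring and 0.21 after level correction, and PLAUR after tetrac, at -0.01 after level correction, all from comparisons that did not pass. ST14 ranged from -0.66 to -0.33 after heteronemin and from -0.67 to -0.47 after Heteronemin+Tetrac, PLAUR from 0.37 to 0.71 after Heteronemin+Tetrac, and PLAU from -0.27 to -0.13 after tetrac. A pseudocount added to both means, or the floor subtracted from both, cannot turn a direction. Values under these settings therefore kept their direction by construction and do not test it. Setting the housekeeping genes equal moved ratios by at most 0.02, so it tested direction little. The p-values could not be recomputed under another scaling.

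The counts depended on the threshold. At an unadjusted printed p under 0.01, 41 panel genes passed after heteronemin, 0 after tetrac and 48 after Heteronemin+Tetrac, against 191, 9 and 153 at p under 0.05. These are the genes with a p printed as 0, and a gene printed as 0.01 may also lie under 0.01. The counts were the same with printed p-values adjusted by Benjamini-Hochberg, which leaves a printed 0 at 0. With the largest p that rounds to the printed one, 0 passed in each, also in every list. With a fold of 1.5 or more besides p under 0.05, 95, 0 and 69 passed. At a printed p under 0.01, or with printed p-values adjusted, the plasminogen list had 0 genes after tetrac. PLAUR kept its call after Heteronemin+Tetrac, but a p printed as 0 stays 0 under adjustment, so this call could not be lost. With the largest p it stood at 0.0715 and did not pass. On printed p-values under 0.01 or adjusted, the matriptase list, the receptor partners and the 2 marker lists had 0 genes in each treatment. The factor list then had 1 after heteronemin and 1 after Heteronemin+Tetrac, and the metalloproteinase list 2 and 0. With a fold of 1.5 or more, the plasminogen list had 0, 0 and 0 genes in the order heteronemin, tetrac and Heteronemin+Tetrac, the receptor partners 1, 0 and 1, the factor list 1, 0 and 1, the metalloproteinase list 1, 0 and 1, and the epithelial markers 0 in each. Among genes with a mean level of 100 or more, the matriptase list had 1 gene after heteronemin and the endothelial, blood and stromal markers 1. A minimum of 20 removed 0 genes.

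Leaving out each replicate was not run, since the tables hold no values per sample. No paired analysis was possible because the columns are group means and carry no replicate number.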

Other observations

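Metalloproteinases and their inhibitors, some of which plasmin can activate, were measured by 17 of 27 listed genes, 10 of them at the floor in Control. After heteronemin ADAM17, the sheddase of TNF and EGF-receptor ligands, passed higher, with a mean of 571 normalized counts against 434 in Control. MMP14, a membrane-bound collagenase, TIMP1, an inhibitor of metalloproteinases, and ADAM9 passed lower, with log2 ratios of -0.60, -0.54 and -0.48. After Heteronemin+Tetrac ADAM17 passed higher, at 672 against 434, and MMP14 lower, at 98.6 against 125. After tetrac 0 of the 15 with a p-value passed. The shares over all tested genes were 27.1% after heteronemin, 1.26% after tetrac and 22.3% after Heteronemin+Tetrac. The list's median log2 ratio was 0.40, 0.02 and 0.13 for heteronemin, tetrac and Heteronemin+Tetrac, beside 0.11, 0.02 and 0.09 over all genes. Of the 10 at the floor in Control, MMP10, MMP12 and MMP24 were still at it after heteronemin. MMP1, MMP2, MMP3, MMP9, MMP13, TIMP4 and ADAMTS1 stood at 49.7 to 80.6 normalized counts there, without a p under 0.05 in the authors' deposited table. They were among 213 panel genes at the floor in Control that stood above it after heteronemin.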
